A study of Homo sapiens with 9 samples.

Results

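The genes described here are members of the Notch pathway, chosen by symbol from the deposited expression values. They were the receptors NOTCH1, NOTCH2 and NOTCH3, the ligands JAG1, JAG2 and DLL1, the DNA-binding factor RBPJ, and the target genes HES1, HES4 and HEY1, 10 genes in all. Of these 10 genes, 9 had a row among the 31080 reference genes or joined genes of the files, and all 9 passed the filter on low values. JAG2 was not analysed here. A549 is an established human lung cancer cell line, and the unmodified line was used in every group. The cells were transfected with a scrambled control siRNA (siCtrl in the labels), siCyclin K#1 or siCyclin K#2 and were collected after 48 h. Both Cyclin K siRNAs target CCNK, which encodes Cyclin K, the cyclin partner of the transcriptional kinases CDK12 and CDK13. Each group had 3 libraries, made from total RNA, and these 9 were sequenced to find which genes changed when Cyclin K was lost.

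Notch is a pathway of contact between neighbouring cells. A ligand of the Jagged or Delta family on one cell binds a Notch receptor on the next, ADAM proteases and gamma-secretase then cut the receptor, and the freed intracellular domain enters the nucleus, where it joins RBPJ and Mastermind proteins on the promoters of target genes. HES and HEY genes are the classical targets and encode basic helix-loop-helix repressors, and in the airway epithelium the pathway is known for its part in the choice between secretory and ciliated fates.

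The values were FPKM, fragments scaled to gene length and library depth, and the steps between low values corresponded to 31333777 to 33767816 reads per library, although the files do not show whether a step is a fragment or a read. The target CCNK was at 7.02 ± 0.107 FPKM (SD, n = 3) in the scrambled group, and 11.5% and 12.0% of this was left after siCyclin K#1 and siCyclin K#2. Of the 6 markers of carcinoma epithelium, 5 had a row and 3 were above 1 FPKM (KRT8, KRT18 and CDH1), while KRT19 and EPCAM were at most 0.108 and 0.279 FPKM. Summed leukocyte, endothelial and alveolar type II markers were at most 1.13, 0.275 and 0.324 FPKM. The summed fibroblast list was 1.91 to 2.32 in the scrambled group, 13.9 to 14.9 with siCyclin K#1 and 3.24 to 3.44 with siCyclin K#2. This came from COL1A1, a collagen gene, while the other fibroblast genes COL1A2, DCN and PDGFRB were at most 0.0111, 0.0919 and 0.136 FPKM, and the part of COL1A1 in the results on Notch genes was not tested. In bulk RNA, fewer cells of a type and less RNA per cell cannot be told apart. Over the 21048 genes tested, the median log2 fold change with siCyclin K#1 was 0.10 and moved to -0.02 under quantile normalization. In the siCyclin K#2 libraries it was 0.01. The p-values measure only the spread between these libraries.

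In the siCyclin K#1 libraries, NOTCH1, NOTCH3 and HES1 rose and NOTCH2, JAG1 and RBPJ fell. These were 6 of the 9 members with an adjusted p under 0.05 (limma with Benjamini-Hochberg adjustment over all tested genes), against 44.8% of all tested genes in the same comparison. After siCyclin K#2, NOTCH1, NOTCH3 and RBPJ rose and NOTCH2 and DLL1 fell, 5 of the 9, against 34.9% of all tested genes. When the 6 siCyclin K libraries were set as 1 group against the 3 scrambled libraries, NOTCH1 rose and NOTCH2 fell, and these were 2 of the 9 members, against 28.6% of all tested genes. The comparison of siCyclin K#1 with siCyclin K#2 called 6 of the 9 members, against 29.4% of all tested genes, with NOTCH3, DLL1, HES1 and HEY1 higher and JAG1 and RBPJ lower with siCyclin K#1. These shares depend on expression level. Among the 11243 genes with a mean of at least 1 FPKM, tested alone, 7507, 6434, 5192 and 5476 were called, in the order given. Of all tested genes, 26.8% were called higher and 18.1% lower with siCyclin K#1, 19.8% and 15.2% with siCyclin K#2, 17.0% and 11.5% over both, and 17.1% and 12.3% between the siRNAs. Under quantile normalization the higher genes made up 50.4%, 50.2%, 50.7% and 52.2% of the called genes in these comparisons, in place of 59.7%, 56.6%, 59.6% and 58.1%. The libraries of the groups did not overlap for 7, 5, 3 and 7 of the 9 members in the same order, against 53.5%, 46.8%, 32.6% and 42.7% of all tested genes. At a fold change over 3 with an unadjusted p under 0.01, the thresholds of the study's methods, 0 of 9 members were called in each of these comparisons, against 4.67%, 1.94%, 2.29% and 1.53% of all tested genes in the order just given. Both comparisons with the scrambled group use the same 3 control libraries.

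**Figure D1:**
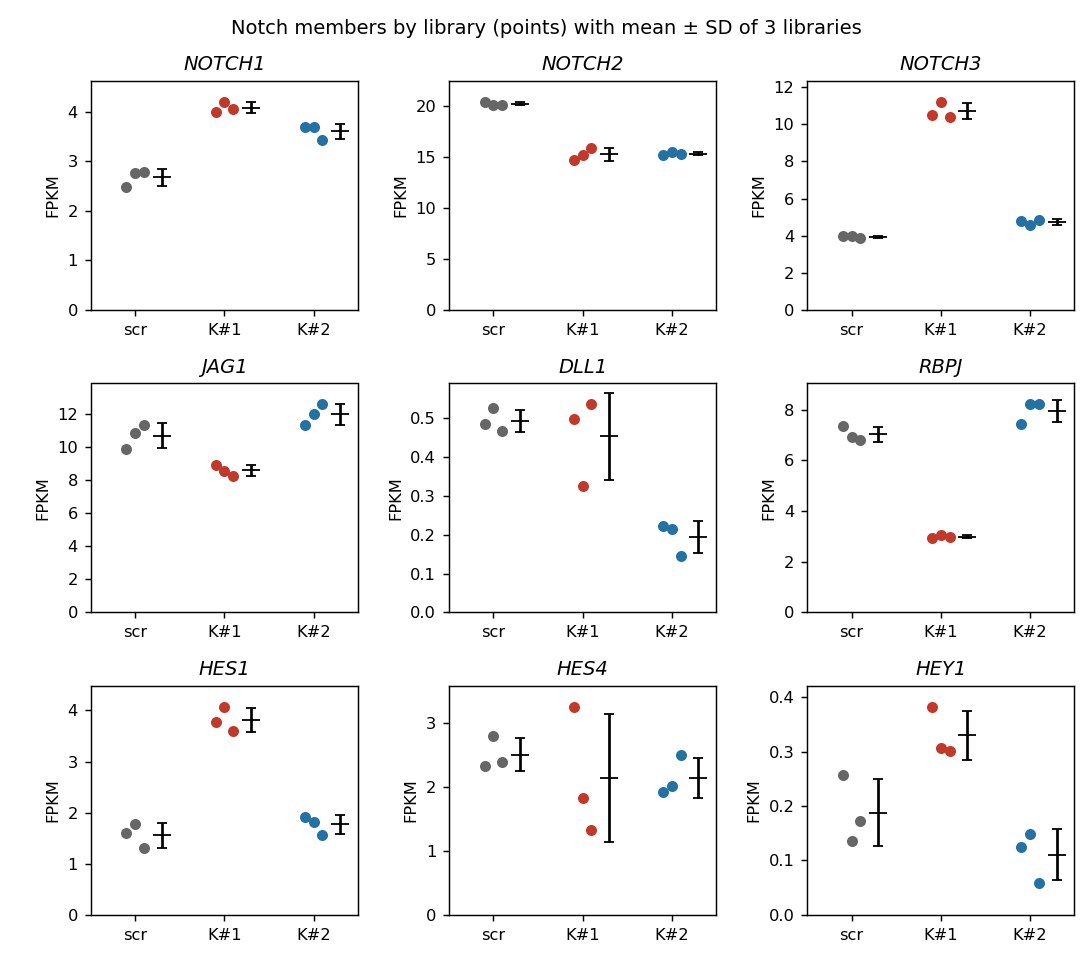
FPKM (linear axes that start at 0 and differ between panels) of the 9 Notch members in each of the 9 libraries, grouped as scrambled, siCyclin K#1 and siCyclin K#2, with 1 point per library and the group mean ± SD beside the points. NOTCH2 sat between 20.1 and 20.4 in the scrambled group and between 14.6 and 15.9 in all 6 siCyclin K libraries, while RBPJ sat at 2.93 to 3.04 FPKM in the siCyclin K#1 libraries and at 6.81 to 8.21 in the others.

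NOTCH2 was the most abundant of the receptors. It lies at chr1:119911553-120069626 on the minus strand (GRCh38, GENCODE 29). The scrambled libraries gave 20.4, 20.1 and 20.1 FPKM. After siCyclin K#1 the values were 14.6, 15.2 and 15.9 FPKM, and with siCyclin K#2 they were 15.2, 15.5 and 15.2 FPKM. Every scrambled library was above every siCyclin K library, and the siRNA groups overlapped each other. NOTCH2 fell by 0.41 on the log2(FPKM + 0.1) scale with siCyclin K#1 (SE 0.04, adjusted p = 3.53e-05 from limma) and by 0.40 with siCyclin K#2 (SE 0.04, adjusted p = 6.58e-05). The siRNAs differed by -0.01 log2, with a 95% interval from -0.10 to 0.08. NOTCH2NL, a near-identical partial copy of NOTCH2 that can share its reads, had 1.84 to 2.47 FPKM in the scrambled group, 1.64 to 1.79 with siCyclin K#1 and 1.91 to 1.95 with siCyclin K#2, so the split between both genes is uncertain.

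NOTCH1 (chr9:136494433-136545786, minus strand) moved the opposite way to NOTCH2. Its FPKM was 2.49, 2.77 and 2.78 in the scrambled libraries. It was 3.99, 4.20 and 4.06 with siCyclin K#1, while siCyclin K#2 gave 3.69, 3.70 and 3.43. Every siCyclin K library was above every scrambled library, and the groups of the individual siRNAs did not overlap either. The log2 fold change was 0.59 with siCyclin K#1 (SE 0.07, adjusted p = 0.000111 from limma) and 0.42 with siCyclin K#2 (SE 0.07, adjusted p = 0.00138). The difference between siRNAs was 0.18 log2 (95% interval 0.02 to 0.33) and did not pass the adjusted test (limma, adjusted p = 0.0871). Over both siRNAs the log2 change was 0.51 for NOTCH1 and -0.40 for NOTCH2 (limma, adjusted p = 0.00264 and 0.000342). For each of them an exact two-sided permutation test of 6 libraries against 3 gave p = 0.0238, the smallest it can give in this design, while 3 libraries against 3 cannot go below p = 0.1.

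NOTCH3 (chr19:15159038-15200981, minus strand) had the largest change of the members with siCyclin K#1. The scrambled libraries had 3.98, 3.97 and 3.86 FPKM. Under siCyclin K#1 NOTCH3 was at 10.5, 11.2 and 10.4 FPKM, and with siCyclin K#2 at 4.82, 4.56 and 4.87 FPKM. The 3 groups did not overlap, with scrambled lowest and siCyclin K#1 highest. Its mean with siCyclin K#1 was 2.72 times the scrambled mean, a log2 fold change of 1.42 (SE 0.05, adjusted p = 1.38e-07 from limma). Under siCyclin K#2 the mean was 1.21 times the scrambled mean, a log2 fold change of 0.26 (SE 0.05, adjusted p = 0.00405). The siRNAs differed by 1.16 log2 (95% interval 1.04 to 1.28, limma, adjusted p = 1.56e-06). Every siCyclin K library lay above the scrambled ones (p = 0.0238 in the exact two-sided permutation test), but in the fit of both siRNAs as 1 group, where the gap between the siRNAs counts as spread, the change of 0.84 (SE 0.33) had an adjusted p of 0.0839 from limma.

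Since NOTCH2 fell while NOTCH1 and NOTCH3 rose, the makeup of the receptor mRNA was computed as each gene's share of their summed FPKM, a per-length scale. NOTCH2 held 75.3% ± 0.529 (SD, n = 3) of the sum in the scrambled group, 50.7% ± 1.46 with siCyclin K#1 and 64.7% ± 0.575 with siCyclin K#2. NOTCH3 held 14.7% ± 0.219, 35.7% ± 1.26 and 20.1% ± 0.799 in the same groups. NOTCH1 held 9.98% ± 0.633, 13.6% ± 0.200 and 15.2% ± 0.569. No groups overlapped in any of these shares, so every exact two-sided permutation test of 3 libraries against 3 gave p = 0.1, the smallest it allows. The shares depend on each other and come from the receptor values already compared above, so these tests are not separate support. The summed receptor FPKM was 26.8 ± 0.0688 in the scrambled group, 30.0 ± 0.763 with siCyclin K#1 and 23.7 ± 0.122 with siCyclin K#2. The sum was therefore higher than scrambled with siCyclin K#1 and lower with siCyclin K#2, while the share of NOTCH2 was lower with both. The sum was read only on the deposited scale and not after rescaling. On that scale the median log2 change over all tested genes was 0.10 with siCyclin K#1 and 0.01 with siCyclin K#2.

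**Figure D2:**
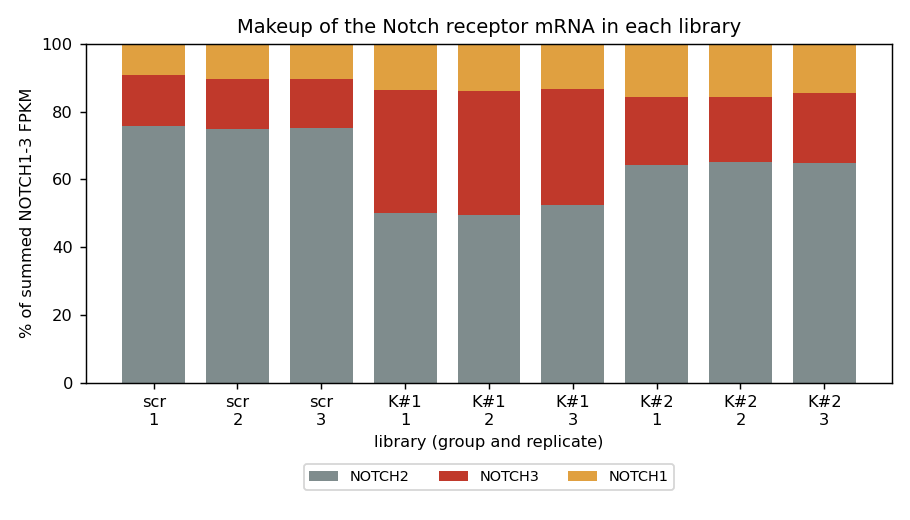
Share of the summed FPKM of NOTCH1, NOTCH2 and NOTCH3 held by each receptor, as stacked bars (percent, y axis from 0), 1 bar for each of the 9 libraries. NOTCH2 held 75.3% of the sum in the scrambled group, 50.7% with siCyclin K#1 and 64.7% with siCyclin K#2, and NOTCH3 held the most with siCyclin K#1.

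Of the ligands, JAG1 (chr20:10637684-10673999, minus strand), a Jagged family ligand, was the more abundant by far. It had 9.89, 10.8 and 11.3 FPKM in the scrambled group. With siCyclin K#1 it had 8.89, 8.57 and 8.27 FPKM, and with siCyclin K#2 11.3, 12.0 and 12.6 FPKM. The siCyclin K#1 libraries were below all others, whereas siCyclin K#2 and scrambled met at 11.3 FPKM. JAG1 fell by 0.31 log2 with siCyclin K#1 (SE 0.06, adjusted p = 0.0034 from limma). With siCyclin K#2 the log2 change was 0.16 (95% interval 0.02 to 0.31) and missed the threshold (limma, adjusted p = 0.0816), and it passed without scrambled replicate 3 (adjusted p = 0.0499). The direct difference between siRNAs was -0.47 log2 (95% interval -0.62 to -0.33, limma, adjusted p = 0.000604).

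DLL1 (chr6:170282206-170306565, minus strand), a Delta family ligand, was close to the filter, with 15 to 57 reads per library. Its FPKM was 0.487, 0.526 and 0.468 in the scrambled group, 0.498, 0.326 and 0.536 with siCyclin K#1, while siCyclin K#2 gave 0.222, 0.215 and 0.146. The siCyclin K#2 libraries, at 15 to 23 reads, were below all others, and the other groups overlapped. DLL1 fell by 1.02 log2 with siCyclin K#2 (SE 0.21, adjusted p = 0.00467 from limma), to 0.393 times the scrambled mean. In the siCyclin K#1 libraries the log2 change was -0.12 (95% interval -0.59 to 0.35, limma, adjusted p = 0.681). The direct difference between the siRNAs, 0.90 log2 (95% interval 0.43 to 1.37), passed the test (limma, adjusted p = 0.011).

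RBPJ (chr4:26163455-26435131, plus strand), the factor that every Notch receptor uses to reach its target genes, differed the most of the 9 members between the siRNAs. The scrambled libraries had 7.34, 6.91 and 6.81 FPKM. After siCyclin K#1 RBPJ was at 2.93, 3.04 and 2.96 FPKM, and with siCyclin K#2 at 7.43, 8.21 and 8.20 FPKM. The 3 groups did not overlap, and the lowest siCyclin K#2 library was just above the highest scrambled library. RBPJ fell by 1.21 log2 with siCyclin K#1 (SE 0.06, adjusted p = 6.48e-07 from limma), to 0.425 times the scrambled mean. In the siCyclin K#2 libraries it rose by 0.18 log2 (SE 0.06, adjusted p = 0.0459), a call that was lost under either rescaling of the libraries (adjusted p = 0.157 and 0.229, limma) and when any library other than scrambled replicate 1 or siCyclin K#2 replicate 1 was left out (adjusted p = 0.0566 to 0.134). The difference between siRNAs was -1.38 log2 (95% interval -1.52 to -1.25, limma, adjusted p = 1.15e-06). RBPJ has processed pseudogenes of like sequence (RBPJP2, RBPJP5, RBPJP6 and RBPJP7), and each of them was at or under 0.170 FPKM in every library.

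The 3′ UTR of RBPJ holds letters complementary to the seed of siCyclin K#1, bases 2 to 8 of the guide strand, the part through which small RNAs pair with 3′ UTRs. This site, looked for after the values were seen, is shown because RBPJ was the only member to hold it. The 7 letters that pair with the siCyclin K#1 seed (GTGATAA, searched on the transcript strand only, in the longest GENCODE 29 3′ UTR of each gene) start at base 3619 of the 4124 bases of the RBPJ 3′ UTR. The 27 bases around them lie at chr4:26434616-26434642 (GRCh38, plus strand), with the site in capitals:
RBPJ site: cccctgtgttGTGATAAatgtttgcca
The same letters are in 9.31% of 19133 longest 3′ UTRs, and in 22.2% of the 2134 UTRs whose length is within 25% of that of RBPJ. Of the 9 tested members and pathway genes that hold them, RBPJ included, 5 were called lower and 3 higher with siCyclin K#1. Of the 67 that do not hold them, 12 were called lower and 33 higher. The letters for siCyclin K#2 (TACAGGT) are in 11.5% of UTRs and in no member. A match of letters is a description of the sequence, and its part in the level of RBPJ was not tested.

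The promoters of the target genes HES1 and HES4 hold the letters of the core motif that RBPJ binds. The motif, TGGGAA, was searched on both strands (TTCCCA on the other) in RefSeq promoters (GRCh38.p14, 250 bases before to 50 after the start). Of the 10 members, 8 had promoters read here, 12 in all, and none was read for DLL1 or HEY1. The promoters of HES1 and HES4 are shown because these are the target genes that were read, and both hold matches. The motif is in capitals, for HES1 at chr3:194135898-194136197 (plus strand) and for HES4 at chr1:1000048-1000347 (minus strand):
HES1: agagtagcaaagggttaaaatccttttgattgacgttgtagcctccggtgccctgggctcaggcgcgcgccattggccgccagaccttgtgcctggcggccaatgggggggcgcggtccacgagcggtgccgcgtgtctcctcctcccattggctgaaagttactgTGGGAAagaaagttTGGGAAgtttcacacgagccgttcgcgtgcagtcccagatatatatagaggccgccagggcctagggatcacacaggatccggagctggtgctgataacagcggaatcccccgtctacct
HES4: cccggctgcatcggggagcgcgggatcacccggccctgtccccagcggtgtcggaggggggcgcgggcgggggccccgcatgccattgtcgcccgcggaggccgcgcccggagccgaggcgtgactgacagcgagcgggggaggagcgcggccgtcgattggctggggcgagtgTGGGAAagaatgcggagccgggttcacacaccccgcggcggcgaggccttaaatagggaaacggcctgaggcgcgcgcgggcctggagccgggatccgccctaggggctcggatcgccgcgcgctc
HES1 held 2 matches, at -84 and -70 from its start, and HES4 held 1, at -76, all on the gene's own strand. Of the other member promoters, 1 of the 5 listed for RBPJ itself held 2 matches, at -115 and -72, and those of NOTCH1, NOTCH2, NOTCH3, JAG1 and JAG2 held none. Among all 35116 promoters of the table, 24.0% held the motif and 3.80% held it at least 2 times.

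HES1 (chr3:194136145-194138732, plus strand) encodes a repressor and is the best known Notch target. It had 1.59, 1.78 and 1.30 FPKM in the scrambled group. Under siCyclin K#1 it had 3.78, 4.07 and 3.61 FPKM, and with siCyclin K#2 1.92, 1.83 and 1.57 FPKM. The siCyclin K#1 libraries were above all 6 others, and the other groups overlapped. HES1 rose by 1.25 log2 with siCyclin K#1 (SE 0.12, adjusted p = 4.78e-05 from limma), to 2.45 times the scrambled mean, in the libraries where RBPJ was lowest. After siCyclin K#2 the log2 change was 0.18 (95% interval -0.11 to 0.46, limma, adjusted p = 0.32). The difference between siRNAs was 1.07 log2 (95% interval 0.79 to 1.35, limma, adjusted p = 0.000282).

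HES4 (chr1:998962-1000172, minus strand), a relative of HES1, had 2.33, 2.81 and 2.40 FPKM in the scrambled group. The siCyclin K#1 libraries were spread from 1.33 to 3.26 FPKM, with 3.26 in replicate 1, 1.83 in replicate 2 and 1.33 in replicate 3. Under siCyclin K#2 the values were 1.92, 2.02 and 2.50 FPKM. The groups overlapped, and 49 to 118 reads lay behind each value. The log2 changes were -0.31 with siCyclin K#1 (95% interval -0.93 to 0.31) and -0.22 with siCyclin K#2 (-0.85 to 0.40), and neither passed the test (limma, adjusted p = 0.403 and 0.585). Without siCyclin K#1 replicate 1 the change with siCyclin K#1 was -0.65 (limma, adjusted p = 0.0165), so this library decides the call.

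HEY1, a repressor of the HEY family, was the lowest member, with 6 to 40 reads per library. Its FPKM was 0.257, 0.136 and 0.172 in the scrambled group, 0.382, 0.306 and 0.300 with siCyclin K#1, while siCyclin K#2 gave 0.125, 0.149 and 0.0583. The siCyclin K#1 libraries were above all others, and the other groups overlapped. Against scrambled, the log2 changes of 0.59 with siCyclin K#1 (95% interval 0.00 to 1.18) and -0.46 with siCyclin K#2 (-1.04 to 0.13) did not pass the test (limma, adjusted p = 0.0972 and 0.219). The direct difference between siRNAs was 1.05 log2 (95% interval 0.46 to 1.64, limma, adjusted p = 0.0151), and it was lost without siCyclin K#1 replicate 1 (0.96 log2, adjusted p = 0.0558).

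**Figure D3:**
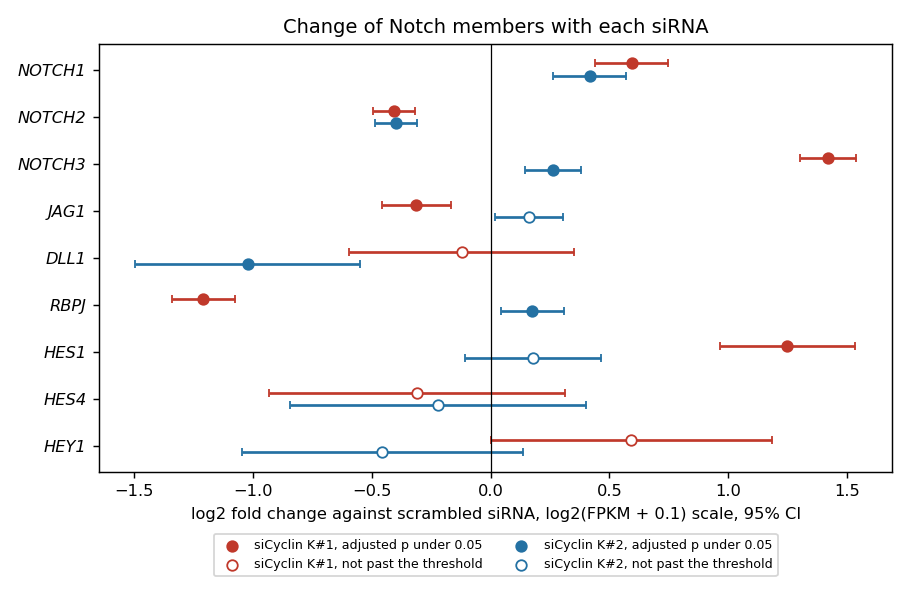
Log2 fold change of each of the 9 Notch members against scrambled siRNA (x axis, log2(FPKM + 0.1) scale) with siCyclin K#1 (red) and siCyclin K#2 (blue), where bars are 95% intervals and filled points had an adjusted p under 0.05. NOTCH1 and NOTCH2 lie on the same side with either siRNA, while NOTCH3 and HES1 lie farther right, and RBPJ far left, with siCyclin K#1.

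Ranked by mean FPKM, a scale per length, the members stood in the order NOTCH2, JAG1, RBPJ, NOTCH3, NOTCH1, HES4, HES1, DLL1 and HEY1 in the scrambled libraries. The only neighbours whose libraries overlapped were NOTCH1 and HES4. After siCyclin K#1 the order was NOTCH2, NOTCH3, JAG1, NOTCH1, HES1, RBPJ, HES4, DLL1 and HEY1, so that RBPJ moved from the third to the sixth place and HES1 rose above it. Neighbours overlapped there for NOTCH1 with HES1, RBPJ with HES4, and DLL1 with HEY1. The siCyclin K#2 libraries kept the scrambled order, and DLL1 and HEY1 were the neighbours that overlapped.

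For the 3 members with the largest log2 change in size over both siRNAs, the genes whose FPKM followed them most closely were taken among those with a mean FPKM of at least 1, by Pearson's r of log2(FPKM + 0.1) over the 9 libraries. The libraries form 3 groups, so that a high r mostly reflects a like order of group means. NOTCH3 was followed by SORT1 (r = 0.998), a sorting receptor, and TGFBR2 (r = 0.997), a TGF-beta receptor, and 472 of 11242 genes had an r over 0.95. TGFBR2 had a mean of 91.7 FPKM in the scrambled group, 187.5 with siCyclin K#1 and 102.1 with siCyclin K#2. HES1 was followed by PPIL1, a splicing-associated isomerase, and CHRNB2, a subunit of the nicotinic receptor (both r = 0.994), and 233 genes had an r over 0.95. DLL1 was followed by NSDHL (r = 0.983), an enzyme of cholesterol synthesis, and D2HGDH (r = 0.971), an enzyme that breaks down hydroxyglutarate, with 13 genes over 0.95.

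The rest of the pathway was read from lists of 78 genes, of which 73 had a row and 67 were tested. In the siCyclin K#1 libraries, 33 rose and 14 fell, and with siCyclin K#2, 27 rose and 13 fell, beside the 44.8% and 34.9% of all tested genes called in these comparisons. Over both siRNAs 20 rose and 11 fell, beside 28.6% of all tested genes. The median log2 change over the 67 genes was 0.26 with siCyclin K#1, 0.20 with siCyclin K#2 and 0.26 over both, against 0.10, 0.01 and 0.06 over all tested genes. A direct comparison of the siRNAs found 22 of the 67 higher and 9 lower with siCyclin K#1, beside 29.4% of all tested genes. Genes with a mean of at least 1 FPKM, tested alone, were called more often than all tested genes. Of these 11243 genes, 7507 were called with siCyclin K#1, 6434 with siCyclin K#2, 5192 over both and 5476 between the siRNAs. NOTCH4 was measured only as a joined feature with GPSM3 and was not called in any of these comparisons. The counts of single lists below stand beside 26.8% of all tested genes called higher and 18.1% lower with siCyclin K#1. With siCyclin K#2 these shares were 19.8% and 15.2%.

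NCSTN, which encodes nicastrin, a subunit of the gamma-secretase that cuts the receptor within the membrane, rose with both siRNAs. It had 9.37, 7.84 and 9.17 FPKM in the scrambled group. After siCyclin K#1 it had 27.4, 29.6 and 26.7 FPKM, and siCyclin K#2 gave 17.0, 18.8 and 16.9. The groups did not overlap, and the log2 change was 1.66 with siCyclin K#1 and 0.99 with siCyclin K#2 (limma, adjusted p = 5.63e-07 and 1.95e-05). Other gamma-secretase genes, named after their values were seen, did not all follow NCSTN. The log2 change of APH1A was -1.38 and -0.22 in the same order (limma, adjusted p = 2.13e-05 and 0.205). That of APH1B was 0.85 and -0.34 (limma, adjusted p = 0.000117 and 0.0276). PSEN2 rose with siCyclin K#1 only (limma, adjusted p = 0.000491 and 0.657). ADAM17, a protease of the outer cut, fell from 50.5 ± 1.22 (SD, n = 3) FPKM to 39.9 ± 1.28 and 41.2 ± 0.629. The other listed ADAM protease, ADAM10, named after its values were seen, went the opposite way. It rose from 12.2 ± 0.744 FPKM to 21.3 ± 0.987 and 14.0 ± 0.544 (limma, adjusted p = 6.14e-06 and 0.0248). In all, 6 of the 8 tested receptor processing genes rose and 2 fell with siCyclin K#1, and 3 rose and 2 fell with siCyclin K#2.

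LFNG and RFNG, Fringe enzymes that add sugar to the receptor and so set which ligands it prefers, moved in opposite directions with both siRNAs, and the third Fringe gene, MFNG, did not pass the test. LFNG had 5.96, 6.60 and 6.64 FPKM in the scrambled group, 2.86, 2.85 and 2.73 with siCyclin K#1, while siCyclin K#2 gave 2.84, 3.42 and 3.38. LFNG was lower in all 6 siCyclin K libraries and fell by 1.16 and 0.98 on the log2 scale (limma, adjusted p = 6.53e-06 and 3.22e-05). RFNG rose from 2.28 ± 0.576 (SD, n = 3) to 3.89 ± 0.526 and 3.74 ± 0.273 FPKM. EOGT, a glycosyltransferase of the same receptor domain, fell from 3.26 ± 0.0457 to 1.45 ± 0.0342 and 2.49 ± 0.241 FPKM. Of the 6 glycosylation genes, 1 rose and 3 fell with siCyclin K#1, while 2 rose and 2 fell with siCyclin K#2.

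Of the 4 tested genes listed under ligand ubiquitination and endocytosis, 3 rose with either siRNA, against 26.8% and 19.8% of all tested genes. NEURL2, named after its values were seen, did not pass the test with either. NEURL1B, also named after its values were seen, rose from 0.217 ± 0.0446 (SD, n = 3) to 1.12 ± 0.517 and 0.991 ± 0.119 FPKM (limma, adjusted p = 0.000747 and 0.00137). MIB1, the main ubiquitin ligase of ligand endocytosis, went from 9.67 ± 0.111 (SD, n = 3) FPKM to 12.9 ± 0.517 and 11.0 ± 0.552. MIB2 went from 0.838 ± 0.0699 to 1.84 ± 0.238 and 1.38 ± 0.137 FPKM. Among the other ligands, of which 5 were tested, 3 rose with siCyclin K#1, and 1 rose and 1 fell with siCyclin K#2. DLK2, a non-canonical ligand, rose with both, from 0.530 ± 0.0721 to 1.95 ± 0.455 and 1.28 ± 0.282 FPKM.

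The coactivators of RBPJ rose or did not pass the test, with 5 of 8 up with either siRNA and 0 down. KAT2B, a histone acetyltransferase, went from 4.91 ± 0.443 (SD, n = 3) FPKM to 9.34 ± 0.411 and 10.3 ± 0.324, and MAML2, a Mastermind protein, from 1.75 ± 0.140 to 2.85 ± 0.0995 and 2.60 ± 0.465. The 17 corepressors moved both ways, with 7 up and 4 down with siCyclin K#1, and 8 up and 3 down with siCyclin K#2. HDAC1, a histone deacetylase, had 20.8, 20.4 and 20.5 FPKM in the scrambled group, 47.5, 47.4 and 48.2 with siCyclin K#1, while siCyclin K#2 gave 44.4, 41.9 and 44.9. Its libraries varied little within a group, and the log2 change was 1.21 with siCyclin K#1 and 1.08 with siCyclin K#2 (limma, adjusted p = 4.05e-08 and 1.74e-07). TLE4, a Groucho corepressor whose row also holds AL353813.1, so that they cannot be told apart, went from 0.815 ± 0.0357 FPKM to 5.32 ± 0.361 and 2.08 ± 0.177. SPEN, which bridges RBPJ to corepressor complexes, fell from 13.4 ± 0.130 to 8.91 ± 0.479 and 10.2 ± 0.325 FPKM. CTBP2 fell from 14.6 ± 0.131 to 8.33 ± 0.885 FPKM with siCyclin K#1, and with siCyclin K#2 its 11.8 ± 1.95 FPKM did not pass the test (limma, adjusted p = 0.0761).

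Feedback and turnover genes were mixed, with 5 of 12 up and 2 down with siCyclin K#1, and 3 up and 3 down with siCyclin K#2. NRARP, a small protein made in response to Notch that limits the pathway, had 3.21, 3.30 and 3.81 FPKM in the scrambled group, 1.57, 1.19 and 0.891 with siCyclin K#1, while siCyclin K#2 gave 0.984, 1.28 and 1.22. All 6 siCyclin K libraries were below the scrambled ones, and NRARP fell by 1.46 and 1.49 on the log2 scale (limma, adjusted p = 0.000236 and 0.000307), and the siRNAs differed by 0.04 (95% interval -0.39 to 0.47). NRARP was therefore lower with siCyclin K#1 while HES1, also a Notch target, was higher. CDK8, a kinase that marks the intracellular domain for degradation, rose from 4.65 ± 0.167 (SD, n = 3) to 7.05 ± 0.303 and 7.03 ± 0.328 FPKM. DTX3L, of the Deltex family, fell from 12.8 ± 0.306 to 10.9 ± 0.426 and 8.38 ± 0.271 FPKM. DTX3 rose from 1.78 ± 0.202 to 2.76 ± 0.406 FPKM with siCyclin K#1, and its 2.27 ± 0.171 with siCyclin K#2 did not pass the test (limma, adjusted p = 0.0675).

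The relatives of the target genes also went different ways, with 3 of 6 up and 3 down with siCyclin K#1, and 2 up and 2 down with siCyclin K#2. HES7, known for its oscillation in somite formation, had 5.53, 6.33 and 5.00 FPKM in the scrambled group, 2.24, 1.64 and 1.20 with siCyclin K#1, while siCyclin K#2 gave 1.93, 2.22 and 2.55. It was lower in all 6 siCyclin K libraries, at 0.301 and 0.397 times the scrambled mean (limma, adjusted p = 0.000147 and 0.00116). HES6 fell from 3.01 ± 0.0736 (SD, n = 3) to 1.66 ± 0.543 and 1.72 ± 0.108 FPKM. HEYL rose from 2.09 ± 0.0831 to 3.74 ± 0.161 and 2.70 ± 0.0807 FPKM, and BHLHE40, a repressor of the circadian clock, from 5.48 ± 0.184 to 10.6 ± 1.69 and 12.1 ± 1.03 FPKM. The RefSeq promoter of HEYL held 2 matches to TGGGAA, and those of HES6, HES7, NRARP and BHLHE40 held none.

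**Figure D4:**
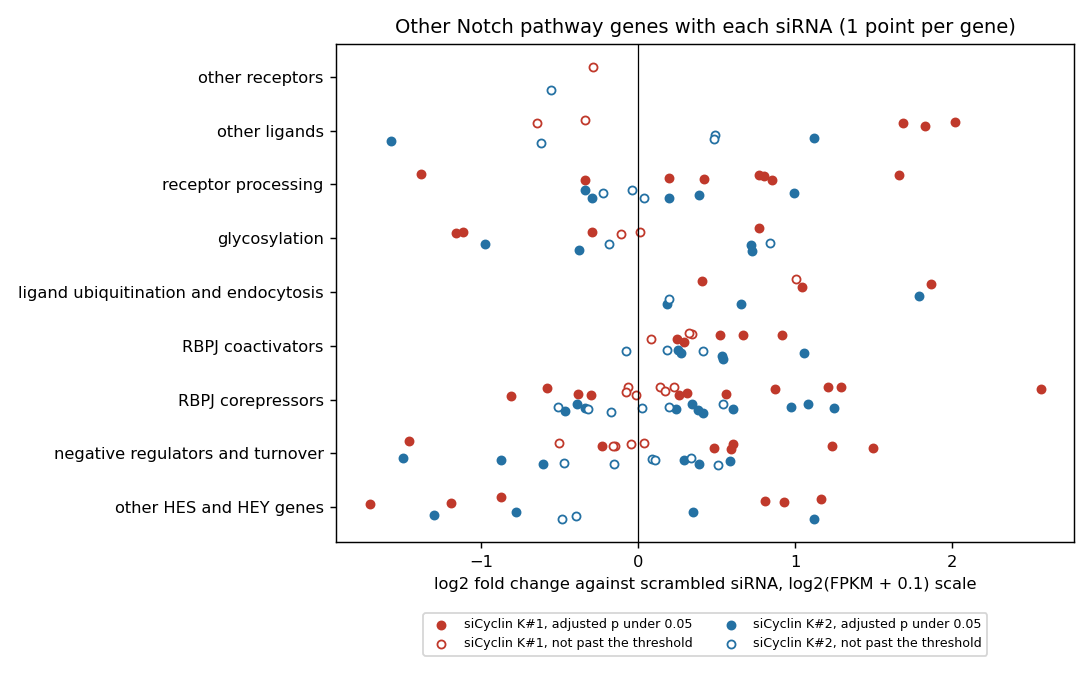
Log2 fold change against scrambled siRNA (x axis, log2(FPKM + 0.1) scale) of the 67 tested genes of the other Notch pathway lists, 1 point per gene and siRNA, siCyclin K#1 in red and siCyclin K#2 in blue, filled where the adjusted p was under 0.05. The coactivator and ligand endocytosis lists hold filled points only to the right of 0, and the other lists with filled points have them on both sides with at least 1 siRNA.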

How the data were processed

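Total RNA of 9 A549 libraries, 3 each of scrambled siRNA, siCyclin K#1 and siCyclin K#2 (48 h), was sequenced on an Illumina HiSeq X system. The authors deposited FPKM per feature, made with StringTie 1.3.3b, with 1 value per library and no pooling. The aligner and annotation release are not given in the sources used here. With GENCODE 29 exon lengths, 84.6% of values came to within 0.05 of a whole number of reads.

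Rows of a reference gene were summed, and 21048 genes with at least 0.1 FPKM in at least 3 libraries entered limma 3.58.1 under R 4.3.3 as log2(FPKM + 0.1) (lmFit, eBayes with trend, Benjamini-Hochberg over all tested genes), so fold changes of low genes are understated. Both siRNAs together were fitted as 2 groups, other comparisons as 3. On simulated data with 200 changed genes among 21048, the fit of siCyclin K#1 against scrambled recovered 145 and also called 9 unchanged genes. Far fewer genes changed there than were called in these data. Each changed gene was also given a larger log2 change than any member showed, so the share recovered does not apply to changes of the members' size. Exact permutation tests used scipy 1.17.1 and doubled the smaller tail.

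The members and lists were chosen with earlier results of these data known. The named genes were all members, CCNK, and from each list at most the 2 highest and 2 lowest changes over both siRNAs among genes with an adjusted p under 0.05 and a mean FPKM of at least 1, except for 1 gene that is not reported here. For the 3 members with the largest change over both siRNAs, the 2 most correlated genes were named. List genes named after their values were seen are outside this rule and are not in the counts of named genes below. Of the pathway lists, DLK1, PSENEN, NUMBL, DTX2 and HES5 were not analysed here, and MFAP2, MFAP5, NEURL1, HES3, HEY2 and HELT were below the filter. Alternatives were other pseudocounts, filters, scalings, groupings and variance models, a replicate block and leaving out each library. limma-voom on the recovered reads was chosen after seeing the data.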

Additional observations from a re-analysis of the deposited data

Results flagged for a closer look

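Of the 31 genes named by rule and tested (9 members and 22 pathway genes), 16 differed between siCyclin K#1 and siCyclin K#2 at an adjusted p under 0.05 (limma with Benjamini-Hochberg adjustment), where 29.4% of all tested genes did. Since the 22 pathway genes were picked for passing the test over both siRNAs at 1 FPKM or more, that share is no like background. Among the 11243 genes with a mean of at least 1 FPKM, tested alone, 5476 differed. Each value is the log2 difference, siCyclin K#1 minus siCyclin K#2. Among the members it was 1.16 for NOTCH3, 1.07 for HES1, 1.05 for HEY1, 0.90 for DLL1, -0.47 for JAG1 and -1.38 for RBPJ. Among the receptor processing, ligand endocytosis and glycosylation genes it was 0.67 for NCSTN, 0.39 for MIB2 and 0.22 for MIB1, and it was -0.74 for EOGT. Among the corepressor, turnover and HES or HEY genes it was 1.32 for the TLE4 feature, 0.46 for HEYL, 0.37 for DTX3L, 0.13 for HDAC1, -0.20 for SPEN and -0.49 for CTBP2. For RBPJ the siRNAs lay on opposite sides of scrambled. The knockdown of CCNK differed by -0.06 (95% interval -0.28 to 0.17) between the siRNAs, and its part in these differences was not tested.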

How the results depend on the processing

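No call for a gene named by rule changed direction under any alternative run. Of the values for single members under an alternative, 716 kept their direction and their side of the threshold, 8 passed it newly, 14 lost it and 10 changed sign, and for the named pathway genes these were 1740, 13, 63 and 12. The 22 values that changed sign passed the test neither before nor after. With quantile normalization the difference between the siRNAs was 0.040 for NOTCH2, 0.023 for ADAM17, -0.019 for RFNG, -0.021 for CDK8 and -0.11 for NRARP, and with median-ratio rescaling it was -0.017 for CDK8. Most of the losses were the rise of RBPJ with siCyclin K#2, with an adjusted p of 0.0577 without a filter, 0.157 with median-ratio rescaling, 0.229 with quantile normalization, 0.0746 without a trend and 0.0696 with only these groups fitted (limma). With the mean of both siRNA groups taken from the fit of 3 groups, 6 members and 9076 genes were called over both siRNAs in place of 2 and 6015, with NOTCH3, DLL1, RBPJ and HES1 added. limma-voom called the NOTCH1 difference between the siRNAs (0.19, adjusted p = 0.0420) and put 1 member, HEY1, past a fold change over 3 between the siRNAs, in place of 0.

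The number of all genes past a fold change over 3 depended on the pseudocount and filter. Over both siRNAs it was 483, and 82, 154 and 854 with a pseudocount of 1, 0.5 and 0.01, and 245 when a mean of 1 FPKM was required. limma-voom gave 701. With siCyclin K#1 it was 983, and 200, 336, 1474 and 474 in the same order, and 1392 with limma-voom. With siCyclin K#2 it was 409, and 70, 117, 709 and 186 in the same order as over both, and 665 with limma-voom. Between the siRNAs it was 322, and 57, 75, 525, 113 and 544. Under quantile normalization the share of higher genes among these calls went from 68.3% to 54.3% with siCyclin K#1 and from 63.4% to 48.0% between the siRNAs.

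When a mean of 1 FPKM was required, DLL1 and HEY1 were no longer tested, which left 4 called members with siCyclin K#2 and 4 between the siRNAs in place of 5 and 6. These calls are not among the 14 lost.

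Leaving out 1 library at a time gave 2 to 3 called members over both siRNAs (NOTCH3 was added without siCyclin K#2 replicate 2, adjusted p = 0.0462, limma), 6 to 7 with siCyclin K#1, 4 to 5 with siCyclin K#2 and 5 to 6 between the siRNAs. Among the values that changed sign, HEY1 over both siRNAs ranged from -0.070 to 0.25 (0.069 with all libraries, negative without scrambled replicate 2 or any 1 of the siCyclin K#1 libraries), and DLL1 with siCyclin K#1 from -0.23 to 0.057 (positive without siCyclin K#1 replicate 2). The difference between the siRNAs ranged from -0.040 to 0.019 for NOTCH2, from -0.43 to 0.19 for HES4, from -0.036 to 0.032 for CDK8, from -0.15 to 0.23 for NRARP, from -0.33 to 0.10 for HES6 and from -0.021 to 0.16 for RFNG.

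Groups share replicate numbers, but the deviations of libraries with the same number were not related (correlation, mean -0.00585, from -0.0711 to 0.0379, over 11243 genes), so they were not treated as pairs. A fit with a replicate block called 2, 6, 4 and 6 members and 4773, 9062, 6947 and 5680 genes for both siRNAs, each of them in turn and the difference between them, and the member lost was RBPJ with siCyclin K#2 (adjusted p = 0.0854, limma).

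DLL1 and HEY1 rest on 6 to 57 reads per library, so counting limits their precision. The groups come from 1 time point in 1 cell line, and protein and receptor cleavage were not analysed here.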
